A study of Mus musculus with 8 samples.

Results

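The 37 genes described here carry out sphingolipid and galactolipid metabolism, from the first step of ceramide synthesis through the galactolipids of myelin to lysosomal breakdown and the sphingosine 1-phosphate steps. They were chosen by name as a pathway and matched by gene symbol to the probes of an Illumina MouseRef-8 v2 array, on which all 37 had at least 1 probe and 54 probes in all. A probe was kept as detected when its detection p-value, set against negative control beads of the same array, was under 0.01 in all 4 arrays of either group. This left 38 probes of 29 genes, among 11204 detected probes of 8051 genes on the whole array. Whole-brain RNA came from 4 Hfe-/-xTfr2mut mice, homozygous for both mutations, and from 4 wild-type mice, all of them AKR males aged 13 weeks that had been perfused with saline. The mutants had eaten 2% carbonyl iron for 3 weeks, whereas wild-type mice stayed on a standard diet of about 0.02% iron. The effects of genotype and of diet therefore cannot be told apart. Each mouse gave 1 array, and the 8 arrays shared 1 BeadChip. Lower RNA per cell and fewer cells of a type cannot be told apart in whole tissue.

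Ceramide, a fatty acid joined to a sphingoid base, is the hub of the pathway. It is built in the endoplasmic reticulum, turned into sphingomyelin, glucosylceramide or galactosylceramide, and recovered when these lipids are broken down in lysosomes. Galactosylceramide and its sulfated form, sulfatide, are the typical glycolipids of myelin and are made by oligodendrocytes. Sphingosine, freed from ceramide, can be phosphorylated to the signaling lipid sphingosine 1-phosphate, which is then dephosphorylated or cleaved.

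The disrupted genes were read first. Hfe had 1 detected probe, which read 314 to 356 units of intensity in arrays labelled Hfe-/-xTfr2mut and 123 to 139.9 in those labelled wild-type. That is a higher signal in the labelled knockout, and where the probe lies on Hfe, inside or outside the disrupted stretch, was not known here. A second Hfe probe was detected in 0 arrays, as were both probes for Tfr2. These probes therefore check neither the deletion nor the labels, and every direction below follows the labels, with "mutant" and "wild-type" standing for arrays so labelled. Mean signal before normalization was 569.5 to 740.7 units in mutant and 570.6 to 904.6 in wild-type arrays, and 11188 to 11751 probes were detected in each mutant array against 11568 to 12192 in each wild-type array. Sptlc1 alone among the 37 genes lies on chromosome 13, which carries Hfe, and 0 lie on chromosome 5, which carries Tfr2.

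For a gene with several detected probes the brightest stands for the gene. By this rule 6 of the 29 detected genes were lower in mutant brain at an unadjusted p under 0.05 (limma), and 0 were higher. These were Fa2h, Ugt8a, Smpd3, Nsmaf, Psap and Sgpp2. Among all 8051 detected genes 5.71% were lower and 6.79% were higher by the same rule. After Benjamini-Hochberg adjustment over all detected probes 0 member probes passed 0.05, where 0.0124% of all genes were lower and 0.199% higher. The smallest adjusted p of any member probe was 0.24 (limma), and among all detected probes 0.0268% were lower and 0.143% higher after adjustment. Before adjustment 8 of the 38 probes were lower and 0 higher, where 6.02% of all detected probes were lower and 6.72% higher. The dim Cerk probe ILMN_2705384 was among these 8 and gave the smallest adjusted p. It was detected in 2 mutant and 4 wild-type arrays, so it was kept only through the group where it was higher. Cers1 (2 mutant and 4 wild-type arrays) and Cers4 probe ILMN_2718499 (1 mutant and 4 wild-type arrays), both negative but not called, were kept in the same way. The log2 change, mutant minus wild-type, was negative for 21 genes and positive for 8, with a median of -0.13. Over all detected genes 49.9% were negative and the median was 0.00. With detection required in all 8 arrays 27 member genes remained, 19 of them negative and the same 6 lower, where 5.47% of all genes were lower. Leaving out 1 array at a time gave 2 to 5 lower genes, where 3.88% to 8.3% of all genes were lower. There were 3 without mutant replicate 1 or mutant replicate 3 and 2 (Fa2h and Sgpp2) without wild-type replicate 4. The study had itself singled out 4 of the 37 genes, Fa2h, Nsmaf, Smpd1 and Sgpp2, from these arrays, so their direction here is not independent evidence. For Fa2h the study also reported a lower transcript level by real-time reverse transcription-PCR.

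**Figure D1:**
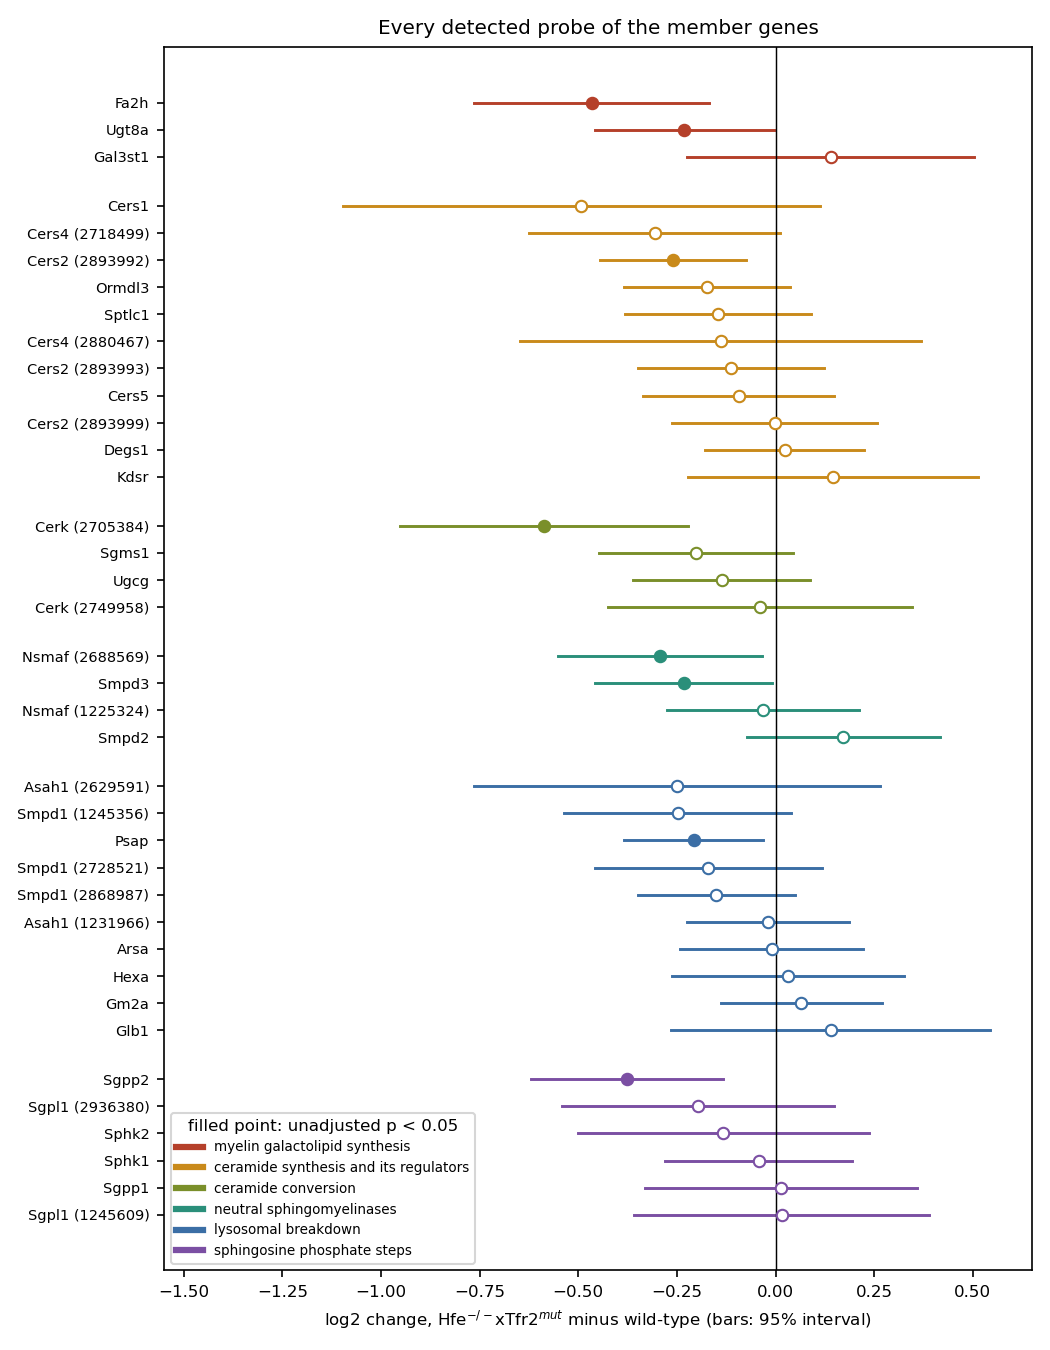
Log2 change, mutant minus wild-type, of each of the 38 detected probes (points) with its 95% interval (bars), grouped by role, the genes with several detected probes carrying the number of the probe. Filled points have an unadjusted p under 0.05 (8 probes, all of them lower in mutant brain), and the points of 29 probes lie left of 0 and those of 9 right of it. Cerk probe ILMN_2705384, Cers1 and Cers4 probe ILMN_2718499 were kept only through their wild-type arrays.

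Regions before an annotated start of 3 genes are printed because the brightest probes of these genes, Ugt8a, Sgpp2 and Psap, had mutant and wild-type arrays that did not overlap. Each is the 250 bases before an annotated start, 5′ to 3′ on the gene's strand, from RefSeq (GRCm38.p6). The Sgpp2 window lies inside the span annotated for that gene, which begins at 78309549. The Ugt8a window overlaps the span of its gene, which ends at 125938682. Capitals mark matches, on either strand, to 5 short motifs. The E-box core CACGTG is read by TFEB, a regulator of lysosomal genes. The GC box was searched as GGGCGG, which Sp1 and related factors read. The SOX-type core was searched as ACAAAG, after the family that holds Sox10 of oligodendrocytes. The others were the CCAAT box under its usual letters and the TATA box as TATAAA.
Ugt8a, chr3:125938653-125938902, minus strand: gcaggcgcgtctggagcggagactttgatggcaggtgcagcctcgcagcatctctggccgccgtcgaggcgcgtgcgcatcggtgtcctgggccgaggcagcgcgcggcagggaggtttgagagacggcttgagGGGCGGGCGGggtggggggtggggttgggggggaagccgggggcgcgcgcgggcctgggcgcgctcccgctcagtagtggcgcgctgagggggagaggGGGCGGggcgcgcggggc
Sgpp2, chr1:78310096-78310345, plus strand: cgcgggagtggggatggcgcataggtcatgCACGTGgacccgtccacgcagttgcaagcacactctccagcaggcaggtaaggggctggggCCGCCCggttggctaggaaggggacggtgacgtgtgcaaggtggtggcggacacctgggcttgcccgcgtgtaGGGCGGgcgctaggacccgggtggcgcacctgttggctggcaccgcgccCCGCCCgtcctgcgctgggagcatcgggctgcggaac
Psap, chr10:60277378-60277627, plus strand: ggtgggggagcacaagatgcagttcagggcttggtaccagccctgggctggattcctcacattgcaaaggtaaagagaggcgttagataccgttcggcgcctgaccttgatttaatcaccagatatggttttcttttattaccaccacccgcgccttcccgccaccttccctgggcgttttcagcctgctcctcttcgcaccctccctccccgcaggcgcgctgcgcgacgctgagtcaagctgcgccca
Ugt8a held 3 matches, all to the GC box, of which the first pair overlap. Sgpp2 held 1 E-box core and 3 GC boxes, and this Psap start held 0 matches.

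Promoters were found for 33 of the 37 genes, some with several starts, and the same 5 motifs were counted in all of them. The E-box core stood before at least 1 start of 10 of the 33 genes, against 6.86% of all 27025 genes and 6.02% of all 32851 starts. The 10 were Arsa, Cers2, Cers6, Degs1, Gla, Glb1, Sgms2, Sgpp2, Smpd2 and Sphk1, of which Sgpp2 was among the genes lower in mutant brain. Ugt8a and Psap held none, and the other 3 lower genes, Fa2h, Smpd3 and Nsmaf, were not searched, nor was Asah1. A GC box stood before 24 of the 33 genes, against 35.4% of all genes, and the CCAAT box before 15, against 37.5%. The SOX-type core stood before 3 genes, against 18.6%, and the TATA box before Sphk1 alone, against 14.3%. A match describes letters in this window and is not evidence of binding.

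The 3 genes that make myelin galactolipids were all detected, and 2 of them were lower in mutant brain, where 5.71% of all detected genes were. Fa2h encodes the fatty acid 2-hydroxylase that supplies the hydroxylated fatty acids of myelin galactolipids. Its signal was 1572, 1507, 2187 and 1678 units in the mutant arrays, against 2626, 2459, 2005 and 2443 in the wild-type arrays. Mutant replicate 3 lay above wild-type replicate 3, so the groups overlapped, and the other 3 mutant arrays lay below all 4 wild-type arrays. The log2 change of Fa2h was -0.47 (SE 0.135), a 1.38-fold lower signal in mutant brain (limma p = 0.0056, adjusted p = 0.25; two-sided exact permutation p = 0.0571). The smallest p this permutation test allows for 4 arrays against 4 is 0.0286.

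Ugt8a encodes UDP-galactose ceramide galactosyltransferase, the enzyme that adds galactose to ceramide. Its signal was 1041, 1301, 1234 and 1261 units in mutant arrays, against 1403, 1328, 1377 and 1559 in wild-type arrays. All 4 mutant arrays were below all 4 wild-type arrays, by a narrow gap between mutant replicate 2 and wild-type replicate 2. The log2 change was -0.23 (SE 0.102; limma p = 0.0459, adjusted p = 0.38; exact permutation p = 0.0286). The call was lost in 7 of the 8 fits that left out a single array, the exception being mutant replicate 2. Gal3st1, which encodes the sulfotransferase that turns galactosylceramide into sulfatide, was measured at 745.4 to 1146 units in mutant arrays and at 622.0 to 967 in wild-type arrays. Its log2 change was 0.14 (SE 0.165; limma adjusted p = 0.74), of the opposite sign to Fa2h and Ugt8a but with a wide 95% interval of -0.22 to 0.50, and the difference between these genes was not tested. The summed signal of the 3 genes was 3359 to 4240 units in mutant and 4349 to 4899 in wild-type arrays, without overlap. This sum includes Fa2h and Ugt8a, the 2 genes called lower, so it is not a separate result.

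**Figure D2:**
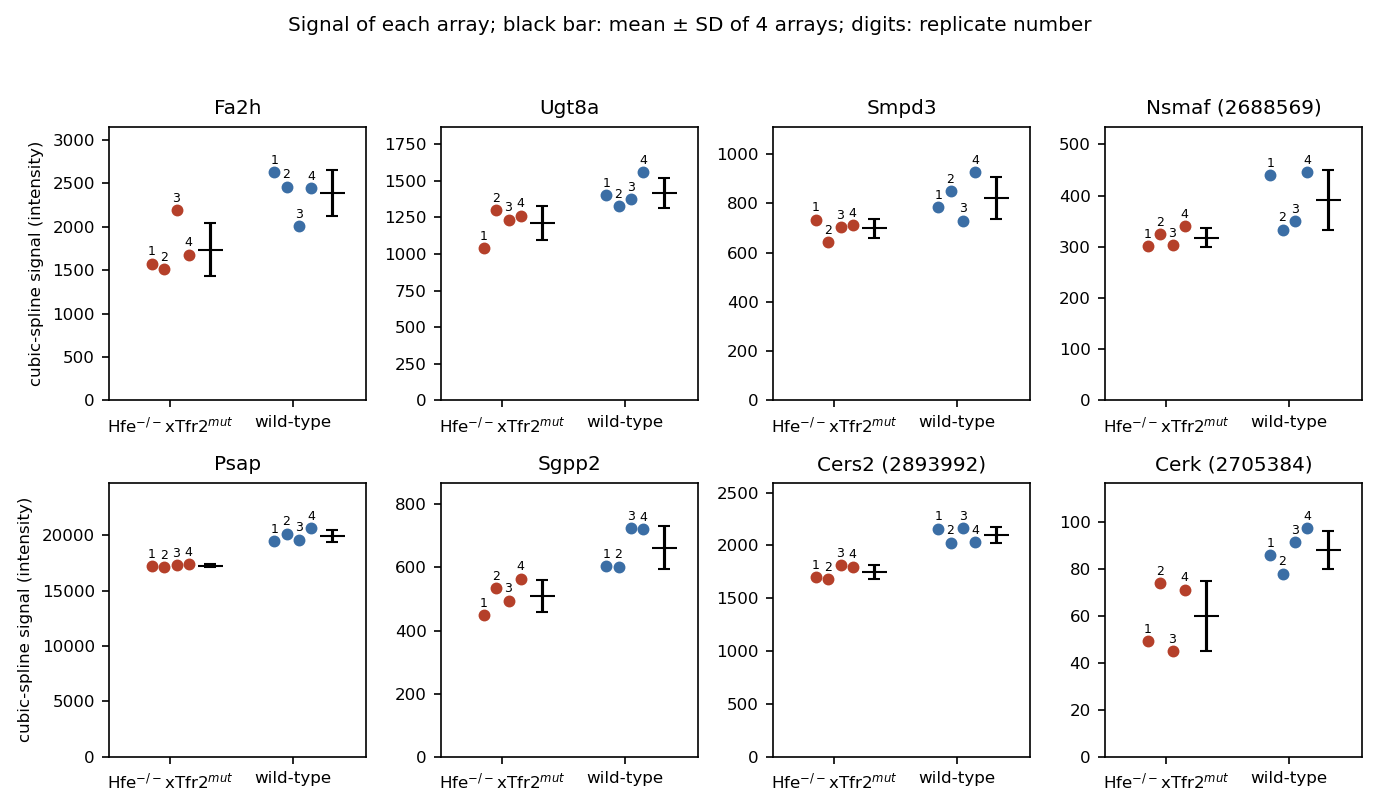
Cubic-spline signal (intensity units, axes from 0) of each array for the 6 genes lower at an unadjusted p under 0.05 and for the second probes of Cers2 and Cerk, mutant left of wild-type, with the mean and SD of 4 arrays as black bars. The groups do not overlap for Ugt8a, Psap, Sgpp2 and the probes shown of Cers2 and Cerk, and overlap for Fa2h, Smpd3 and Nsmaf.

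Of the 13 genes for ceramide synthesis and its regulators 8 were detected, and by their brightest probes 0 were called in either direction. Their log2 changes were negative for 6 and positive for 2, with a median of -0.13. Sptlc1, a subunit of serine palmitoyltransferase, which catalyzes the first step, changed by -0.15 (SE 0.107), and Kdsr, for the reductase of the second step, by 0.15 (SE 0.166). Degs1 encodes the desaturase that completes ceramide. It had 7061, 8458, 7199 and 7356 units in mutant arrays, against 7224, 7555, 7543 and 7209 in wild-type arrays. These overlapped, with a log2 change of 0.02 (SE 0.092) and a 95% interval of -0.18 to 0.22. Ormdl3, one of the ORMDL proteins that restrain serine palmitoyltransferase, changed by -0.17 (SE 0.096; limma adjusted p = 0.47). Sptlc2, Cers6, Degs2, Ormdl1 and Ormdl2 were detected in 0 arrays, so the second large subunit of serine palmitoyltransferase, the other desaturase and the other ORMDL genes had no measured level.

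The ceramide synthases, each with its own preference for fatty acid length, had several probes that did not give 1 answer. Cers2, which makes the very-long-chain ceramides abundant in myelin, had 3 detected probes. On the middle one by brightness, ILMN_2893992, the signal was 1699.5, 1683, 1813 and 1799 units in mutant arrays and 2160, 2027, 2162 and 2032 in wild-type arrays. All 4 mutant arrays were below all 4 wild-type arrays on this probe, with a log2 change of -0.26 (SE 0.084; limma p = 0.0102, adjusted p = 0.29; exact permutation p = 0.0286). The brightest Cers2 probe, ILMN_2893993, changed by -0.11 (SE 0.106), with 3500 to 4430 units in mutant and 4018 to 4579 in wild-type arrays. The third, ILMN_2893999, changed by 0.00 (SE 0.118), so the lower signal was seen on 1 of 3 Cers2 probes, and which transcripts each probe reads was not known here. Cers5 changed by -0.09 (SE 0.110). Cers1 and Cers4 lay near the detection limit, which was 57.0 to 69.4 units in mutant and 49.6 to 61.0 in wild-type arrays. Cers1, the synthase typical of neurons, was detected in 2 mutant and 4 wild-type arrays and changed by -0.49 (SE 0.273; limma adjusted p = 0.47). Its value in mutant replicate 2 was 27.6 units, and without that array the change was -0.16. The probes of Cers4 changed by -0.14 (SE 0.231; detected in 4 mutant and 3 wild-type arrays) and -0.31 (SE 0.144; detected in 1 mutant and 4 wild-type arrays), and the gap between them was not tested.

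Ceramide conversion was represented by Sgms1, Ugcg and Cerk, and 0 of these 3 genes were called by their brightest probes. Sgms1, for a sphingomyelin synthase, changed by -0.20 (SE 0.111; limma adjusted p = 0.47), and Sgms2, its relative, was detected in 0 arrays. Ugcg, for the glucosyltransferase that starts the gangliosides, changed by -0.14 (SE 0.102). Cerk encodes ceramide kinase, and its brightest probe, ILMN_2749958, had 4600, 6569, 3893 and 4871 units in mutant arrays and 4168, 4449, 6310 and 5449 in wild-type arrays. Within each group these values spread more than the groups differed, and the log2 change was -0.04 (SE 0.175). The second Cerk probe, ILMN_2705384, was dim, at 49.1, 73.8, 44.9 and 71.2 units in mutant arrays and 85.7, 77.9, 91.2 and 97.1 in wild-type arrays. Here the groups did not overlap, with a log2 change of -0.59 (SE 0.165; limma p = 0.0047, adjusted p = 0.24; exact permutation p = 0.0286), but the probe was above background in only 2 of 4 mutant arrays, so that value rests on signals at the detection limit.

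In the neutral sphingomyelinase branch, which frees ceramide from sphingomyelin outside the lysosome, 2 of the 3 genes were lower in mutant brain. Over all detected genes 5.71% were lower by the same rule. Smpd3, the neutral sphingomyelinase most associated with brain, had 734.0, 640.8, 703.8 and 711.8 units in mutant arrays and 785.0, 847.9, 728.7 and 926.0 in wild-type arrays. Mutant replicate 1 was just above wild-type replicate 3, and the other 3 mutant arrays were below all wild-type arrays. The log2 change was -0.23 (SE 0.101; limma p = 0.0430, adjusted p = 0.38; exact permutation p = 0.0571).

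Nsmaf encodes FAN, the adaptor that couples the TNF receptor to neutral sphingomyelinase activity. On its brightest probe, ILMN_2688569, the signal was 301.8, 325.4, 303.9 and 340.0 units in mutant arrays and 439.6, 333.7, 349.8 and 445.9 in wild-type arrays. Only mutant replicate 4 exceeded a wild-type array, and the log2 change was -0.29 (SE 0.117; limma p = 0.0300, adjusted p = 0.34; exact permutation p = 0.0571). The second probe, ILMN_1225324, had 358.8, 341.3, 302.7 and 389.1 units in mutant arrays and 364.1, 312.6, 395.4 and 349.6 in wild-type arrays, and its log2 change was -0.03 (SE 0.110). Nsmaf therefore left the called genes when the probes of a gene were averaged. Smpd2, the other neutral sphingomyelinase, changed by 0.17 (SE 0.111; limma adjusted p = 0.53).

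Lysosomal breakdown showed the smallest median shift of the 6 roles, -0.01 over the 7 of 9 genes detected, with 4 changes negative and 3 positive. Psap was the 1 gene called, where 5.71% of all detected genes were lower. It encodes prosaposin, the precursor of the saposins that present sphingolipids to lysosomal hydrolases. Its signal was 17218, 17143, 17312 and 17391 units in mutant arrays and 19445.5, 20132, 19593 and 20617 in wild-type arrays. The groups were apart and the mutant arrays were close to each other, with an SD of 108 units against 535 in wild-type arrays. The log2 change was -0.21 (SE 0.080; limma p = 0.0256, adjusted p = 0.34; exact permutation p = 0.0286), a 1.15-fold lower signal, and on the table the authors scaled by array average its limma p was above 0.05.

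The lysosomal hydrolases and their activator other than Psap were not called. Smpd1, the acid sphingomyelinase, had 3 probes with log2 changes of -0.15 (SE 0.090), -0.25 (SE 0.131) and -0.17 (SE 0.130), all negative and none past the unadjusted threshold. Under other processing these probes, in that order, passed it as lower in 4, 3 and 2 of 21 alternatives. Asah1, the acid ceramidase, had detected probes at -0.02 (SE 0.093) and -0.25 (SE 0.233). Arsa, the arylsulfatase that removes sulfate from sulfatide and is deficient in metachromatic leukodystrophy, changed by -0.01 (SE 0.106), with a 95% interval of -0.24 to 0.22. The ganglioside-degrading genes Glb1, Gm2a and Hexa changed by 0.14 (SE 0.183), 0.07 (SE 0.092) and 0.03 (SE 0.133). Galc, the galactosylceramidase that is deficient in Krabbe disease, was detected in 0 arrays on any of its 3 probes, and Gla was detected in 0 arrays as well. The removal of galactose from myelin galactolipid was thus not measured, and its synthesis could not be set against it.

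All 5 genes of the sphingosine 1-phosphate steps were detected, and Sgpp2 was the 1 called, where 5.71% of all detected genes were lower. Sgpp2 encodes a phosphatase of the endoplasmic reticulum that returns sphingosine 1-phosphate to sphingosine. It had 448.7, 534.5, 494.1 and 564.2 units in mutant arrays and 604.3, 602.5, 723.6 and 721.4 in wild-type arrays. Every mutant array lay below every wild-type array. The log2 change was -0.38 (SE 0.111), a 1.30-fold lower signal in mutant brain (limma p = 0.0060, adjusted p = 0.26; exact permutation p = 0.0286).

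Its relative Sgpp1 did not share this. Sgpp1 had 1475, 2118, 1371 and 1812 units in mutant arrays and 1365, 1608, 1976 and 1720.3 in wild-type arrays, which overlapped widely, with a log2 change of 0.01 (SE 0.156; 95% interval -0.33 to 0.36). The kinases Sphk1 and Sphk2, which make sphingosine 1-phosphate, changed by -0.04 (SE 0.107) and -0.13 (SE 0.167), each from the 1 probe detected. Sgpl1, the lyase that ends the pathway, had probes at -0.20 (SE 0.157) and 0.02 (SE 0.170). The difference between Sgpp2 and Sgpp1 was not tested.

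Set side by side, the 14 detected genes of synthesis (galactolipids, ceramide and its conversion, of 20 listed) had 2 lower calls, 11 negative and 3 positive changes and a median of -0.14. The 7 detected lysosomal genes had 1 lower call, 4 negative and 3 positive changes and a median of -0.01. Their mean log2 signal was 11.11 to 11.22 in mutant and 11.13 to 11.24 in wild-type arrays, with overlap. The summed signal of all 7, of which Psap was the brightest, was 29886 to 30700 units in mutant and 32425 to 33837 in wild-type arrays, without overlap. The sum of the 6 genes other than Psap was 12574 to 13557 units in mutant and 12979 to 13933 in wild-type arrays, with overlap. The 5 sphingosine 1-phosphate genes had 1 lower call, 4 negative changes and 1 positive, and a median of -0.13. Among all detected genes 5.71% were called lower and 49.9% had a negative change. The neutral sphingomyelinase branch had a median of -0.23 over 3 genes, as did the galactolipid genes, and ceramide conversion one of -0.14 over 3. These medians rest on few genes measured on the same 8 arrays, and differences between roles were not tested. By the brightest probe 3 of the 29 genes were lower without overlap and 0 higher, where 3.49% of all detected genes were lower and 4.56% higher without overlap.

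Spread within a group was read next. The SD as a share of the mean had a median of 9.83% in mutant and 10.8% in wild-type arrays over the 29 genes. A shared pattern, chosen after the values were seen, ran across both groups: 8 genes (Gal3st1, Cerk, Smpd1, Asah1, Arsa, Glb1, Sphk1 and Sgpp1) were highest in mutant replicate 2 among mutant arrays and in wild-type replicate 3 among wild-type arrays. Another 8 (Fa2h, Cers5, Ugcg, Smpd3, Gm2a, Hexa, Sphk2 and Sgpl1) were lowest in both of those arrays. These were the 2 arrays of lowest mean signal before normalization, 569.5 units in mutant replicate 2 and 570.6 in wild-type replicate 3. With that mean signal as a covariate, an alternative added after the data were seen, Fa2h changed by -0.39, Sgpp2 by -0.43 and Psap by -0.21, and the 6 genes called lower all remained so and were joined by Smpd1, where 7.95% of all genes were lower.

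**Figure D3:**
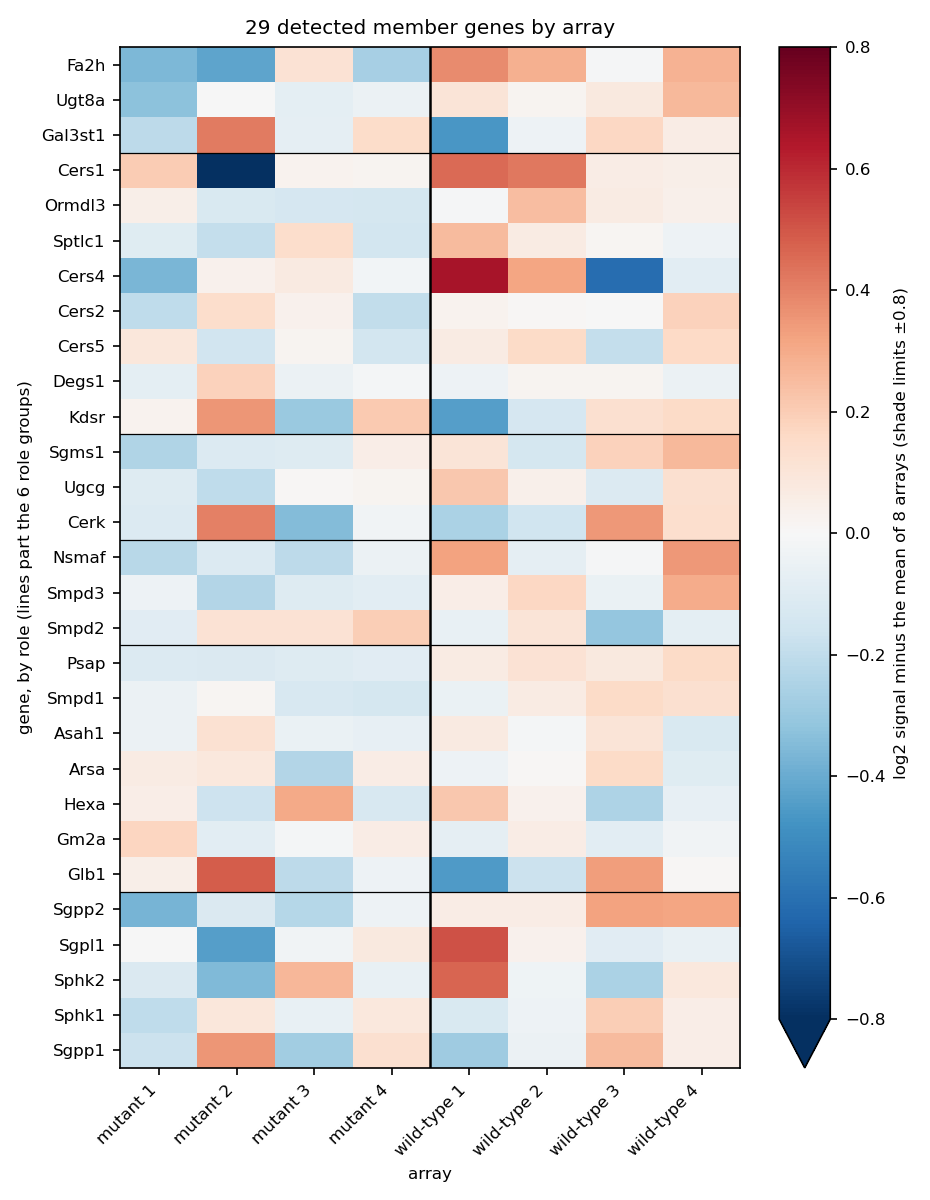
Log2 signal of the brightest probe of each of the 29 detected genes in each array, minus its mean over the 8 arrays (color, red above and blue below the mean), with mutant arrays left of wild-type arrays and lines between the 6 roles. Fa2h, Sgpp2 and Psap are mainly blue in mutant and red in wild-type arrays, whereas Gal3st1, Cerk, Glb1 and Sgpp1 are red in mutant replicate 2 and wild-type replicate 3.

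Markers of brain cell types were read beside these genes. The background for their calls is 5.71% of all 8051 detected genes lower and 6.79% higher at an unadjusted p under 0.05. Of 13 mature oligodendrocyte and myelin markers 9 were detected, 8 with a negative change and 1 with a positive one, a median of -0.16 and 1 lower call, Cnp, while Ermn and Aspa had probes but were not detected. Their summed signal was 73672 to 77350.4 units in mutant and 76450.2 to 84362 in wild-type arrays, with a small overlap. The mean log2 signal of the 9, which weights each marker alike, was 11.87 to 12.076 in mutant and 12.079 to 12.15 in wild-type arrays, without overlap. Of these markers the study had itself listed Mobp, Mog, Cnp, Cldn11 and Tspan2 as lower, from these same arrays. Their direction here, and so the sum and mean that include them, is not independent evidence. Taken relative to the mean log2 signal of those 9 markers in the same array, as was computed for all 29 genes, the log2 difference was -0.32 for Fa2h (two-sided exact permutation p = 0.0571) and -0.23 for Sgpp2 (exact permutation p = 0.0857). It was -0.09 for Ugt8a (exact permutation p = 0.23) and -0.06 for Psap (exact permutation p = 0.20). For Smpd3 it was -0.09 (exact permutation p = 0.43) and for Nsmaf -0.15 (exact permutation p = 0.31). Adjusted over the 29 genes, the exact permutation p of the 6 genes called lower was 0.41 (Fa2h) to 0.73 (Smpd3). For all 6 of these genes the groups overlapped on this scale. Of the 29 genes 0 were lower and 2 higher without overlap on it, Degs1 at 0.17 and Smpd2 at 0.32, where 0.224% of all detected genes were lower and 12.6% higher without overlap. Microglia markers went the other way, with all 7 detected of 8 positive, 2 called higher, a median of 0.20 and a summed signal of 3214 to 3373 units in mutant and 2657 to 3122 in wild-type arrays. The 3 detected of 6 endothelial markers had a median of -0.41 with 2 lower calls, Flt1 and Slco1a4. The 3 detected of 6 oligodendrocyte precursor markers, with a median of 0.01 and 1 higher call, Cspg4, summed to 1469 to 1732 units in mutant and 1559 to 1857 in wild-type arrays. Slco1a4 was detected in 1 mutant and 4 wild-type arrays, and Cspg4 in 4 mutant and 3 wild-type arrays. Both were thus kept only through the group where they were higher. The 7 astrocyte, 5 neuron and 4 choroid plexus markers detected had medians of -0.11, -0.13 and -0.17, with 1 lower call each, and among neuron markers Snap25, Nefl and Gad2 were not detected. The part of any cell type in the changes of the pathway genes was not tested.

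**Figure D4:**
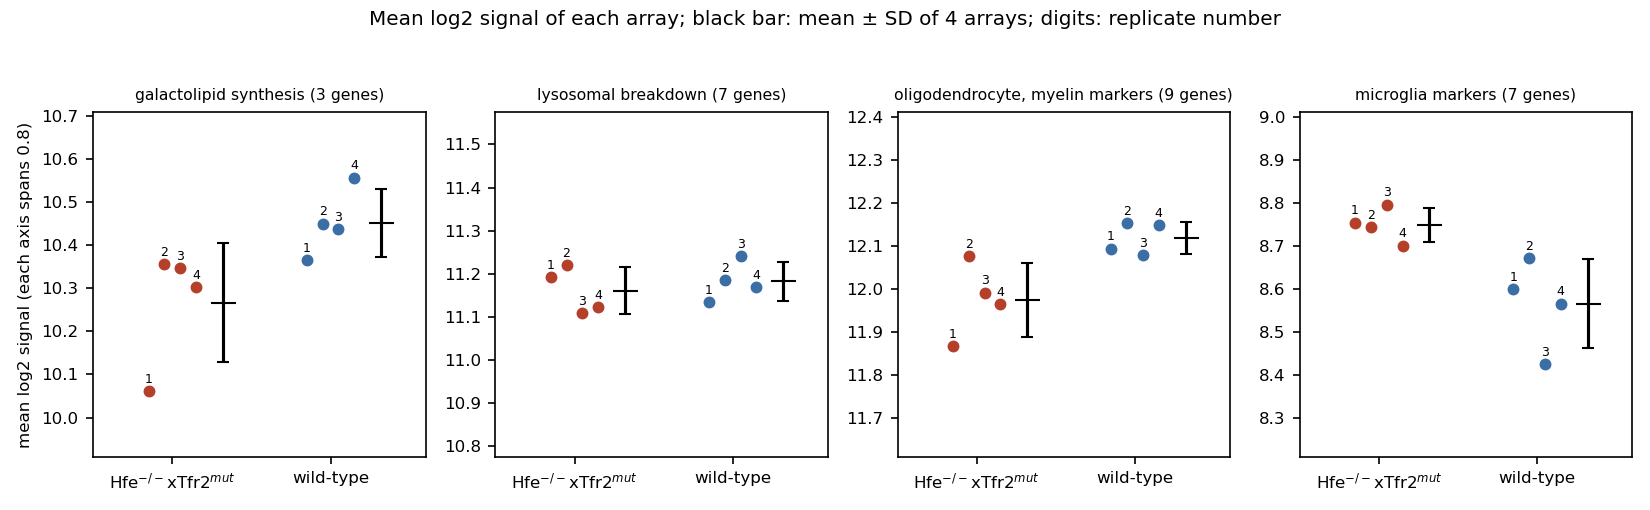
Mean log2 signal in each array of the 3 galactolipid synthesis genes, the 7 lysosomal genes, 9 oligodendrocyte and myelin markers and 7 microglia markers, mutant left of wild-type, with the mean and SD of 4 arrays as black bars; axes do not start at 0 and each spans 0.8. The galactolipid and oligodendrocyte means are lower in all 4 mutant arrays than in any wild-type array by narrow gaps, the microglia mean is higher, and the lysosomal means overlap. The galactolipid mean includes Fa2h and Ugt8a, which were called lower.

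A further 50 sphingolipid genes outside the 37 were listed, of which 26 were detected. Of these 1 was lower and 2 were higher at an unadjusted p under 0.05, where 5.71% of all detected genes were lower and 6.79% higher. Among the 26, 14 changes were negative and 12 positive, and the median was -0.04. The lowest unadjusted p belonged to Smpdl3b, a membrane relative of the acid sphingomyelinase, which changed by 0.38 (SE 0.117; limma adjusted p = 0.28; exact permutation p = 0.0571). Elovl6, an elongase of fatty acids, changed by -0.35 (SE 0.126; limma adjusted p = 0.32; exact permutation p = 0.0571), with 1797 to 2253 units in mutant and 2130 to 3037 in wild-type arrays. Acer3, an alkaline ceramidase, changed by 0.20 (SE 0.092; limma adjusted p = 0.39; exact permutation p = 0.0286), with 648.6 to 681.2 units in mutant and 522.4 to 641.7 in wild-type arrays, without overlap. Over all detected genes 4.56% were higher without overlap.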

How the data were processed

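Whole-brain total RNA of 4 Hfe-/-xTfr2mut and 4 wild-type mice was hybridized to 1 MouseRef-8 v2 BeadChip (25697 probes). The authors subtracted background and normalized in GenomeStudio and deposited intensity values, without normalization, after average scaling and after cubic-spline normalization. Each deposited signal has its own detection p-value against negative control beads. Settings of the software were not known here, and the number of arrays limits the precision. Groups came from sample titles.

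Probes were named through Entrez identifiers in RefSeq (23962 probes) or by the platform annotation (16), and 1719 had no name. Cubic-spline signals under 10 were set to 10, and the log2 values computed from the deposited intensities were fitted with limma 3.58.1 in R 4.3.3 for the difference of the mutant from the wild-type group. The p-values of the 11204 detected probes were adjusted together by the Benjamini-Hochberg method. The script was tested on simulated data. Single values had a two-sided exact permutation test over 70 assignments.

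The 37 genes, their roles and all lists were chosen with earlier results of these data known. Every array's value was given for genes with an unadjusted p under 0.05 or with a probe that did not overlap between groups, and for the brightest gene of each role, and log2 changes for the other genes. Alternatives were other normalizations, floors, detection filters, tests, covariates, array weights, averaged probes and leaving out each array.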

Additional observations from a re-analysis of the deposited data

Results flagged for a closer look

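In 6 of the 76 groups of 4 arrays tested over the detected probes of the 37 genes, 1 array stood apart from the other 3 by more than Dixon's 95% limit, where chance gives about 1 in 20. Cers1 had 27.6 units in mutant replicate 2, against 66.1 to 74.8 in the other mutant arrays. Its probe ILMN_2751386 was there below the lowest detected signal of the array. Cers2 had 2 such arrays on different probes, 4579 units in wild-type replicate 4 on ILMN_2893993 (4018 to 4108 in the others) and 736.0 in mutant replicate 1 on ILMN_2893999 (996.2 to 1022 in the others). Ormdl3 had 1918.5 units in mutant replicate 1, against 1683 to 1700.0 in the other mutant arrays, and without that array its log2 change was -0.22. Asah1 had 3571 units in mutant replicate 2 on ILMN_1231966, against 3142 to 3186, and Arsa 780.1 in mutant replicate 3, against 958.3 to 974.3. Of the 6 genes called lower, 0 had such an array.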

How the results depend on the processing

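Fa2h and Sgpp2 kept their direction and an unadjusted p under 0.05 under all 21 alternatives, at -0.58 to -0.39 and -0.48 to -0.32. Ugt8a lost the threshold under 8 alternatives, Smpd3 under 7, Nsmaf under 5 and Psap under 5, all with the direction kept. Fa2h reached a limma adjusted p of 0.0493 with array weights (0.0493 to 0.50 over its alternatives). In that setting 118 of all detected probes were called after adjustment, against 19 in the main fit. With 1 array left out, 2 to 5 of the 29 detected member genes were lower, where 3.88% to 8.3% of all genes were lower. Psap and Nsmaf lost the threshold without mutant replicate 1 or wild-type replicate 4, Psap also without wild-type replicate 2 and Nsmaf also without mutant replicate 3 or wild-type replicate 1. Smpd3 kept it only without wild-type replicate 1 or 3, and Ugt8a only without mutant replicate 2. Cers1 was lower without mutant replicate 1 and Sgms1 without wild-type replicate 2. Over all 21 alternatives the brightest Smpd1 probe passed the threshold as lower under 4, and Ormdl3 and Sgms1 under 3 each.

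Over all detected probes 674 were lower, 753 higher and 19 called after adjustment. The average-scaled table gave 1489 lower and 356 higher, with a median change of -0.09 against 0.00. There 7 of the 29 detected member genes were lower, where 12.2% of all genes were. Array weights gave 118 adjusted calls and 1069 lower. The adjusted calls numbered 12 with detection in all 8 arrays, 7 with no detection filter and 8 with the equal-variance test. The cause was not tested.

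The sample titles do not state whether replicate numbers pair the arrays. Deviations of same-numbered arrays correlated at 0.10, -0.14, -0.35 and 0.10, and those of differently numbered arrays at -0.45 to 0.44. Each deviation was taken from the mean of only 4 arrays, so these values cannot decide whether a pairing existed. With the replicate number as a block 3 of the 29 detected member genes were lower (Fa2h, Nsmaf and Sgpp2), where 4.27% of all genes were lower. Over all detected probes 15 were then called after adjustment.

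Changes turned sign 38 times in 12 probes, none of them called. Most of these changes were near 0, but those of Cers4 (ILMN_2880467), at -0.14, and Sphk2, at -0.13, were about as large as the median of the 29 genes. With average scaling Hexa was -0.048, Sgpp1 -0.039 and Sgpl1 (ILMN_1245609) -0.13. Cers2 (ILMN_2893999) was 0.0043 with quantile normalization and 0.0034 with neqc. Sgpp1 was -0.025 with BeadChip position as a covariate. With array weights Degs1 was -0.022, Nsmaf (ILMN_1225324) 0.10, Arsa 0.015, Sgpp1 -0.0100 and Sgpl1 (ILMN_1245609) -0.039. With mean signal as a covariate Cers4 (ILMN_2880467) was 0.012 and Sgpp1 -0.098. With 1 array left out the ranges were -0.046 to 0.11 for Cers2 (ILMN_2893999), -0.091 to 0.019 for Sphk1, -0.16 to 0.11 for Sgpl1 (ILMN_1245609), -0.035 to 0.052 for Degs1, -0.10 to 0.11 for Sgpp1, -0.18 to 0.072 for Cerk (ILMN_2749958), -0.092 to 0.034 for Nsmaf (ILMN_1225324), -0.045 to 0.067 for Arsa, -0.065 to 0.11 for Hexa, -0.37 to 0.058 for Cers4 (ILMN_2880467), -0.063 to 0.012 for Asah1 (ILMN_1231966) and -0.24 to 0.0013 for Sphk2. Signal near background limits Cers1, Cers4 and the dim Cerk probe.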
